A study of Homo sapiens with 11 samples.

Results

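Keratins are the proteins of the intermediate filaments of epithelial cells. The 10 genes described here, KRT5, KRT6A, KRT7, KRT8, KRT14, KRT15, KRT17, KRT18, KRT19 and KRT81, were chosen by name as keratins that tell luminal from basal epithelium, and they are 10 of the 25590 genes listed. All 10 were kept by the filter on low counts, together with 16620 other genes. The tumours had grown from PC-3 cells, a human prostate carcinoma cell line, injected with matrigel under the skin of athymic nude mice. The mice were males of the strain Crl:NU-Foxn1nu and 8 weeks old when the xenografts were set up. The mice received intraperitoneal injections of A2M*, the transformed form of the protease inhibitor A2M that the labels call A2M, in a dose of 5.6 mg for 20 g of body weight, and the controls received PBS. RNA of 5 PBS tumours (T123 to T127, after the numbers in their labels) and 6 A2M tumours (T112 and T128 to T132) was sequenced with 1 library per tumour, and all 11 come from 1 cell line. The labels do not tie each tumour to a mouse of its own, so p-values measure the spread between these tumours.

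A keratin filament is built from pairs of 1 type I (acidic) and 1 type II (basic) keratin. Luminal and other simple epithelia use the type II keratins KRT7 and KRT8 with the type I keratins KRT18 and KRT19, while basal cells of stratified epithelium and of the prostate use KRT5 (type II) with KRT14 or KRT15 (type I). KRT6A (type II) and KRT17 (type I) are induced in stressed or wounded skin, and KRT81 is a type II keratin of the hair shaft. In the prostate, secretory cells carry the KRT8 and KRT18 pair and basal cells the KRT5 and KRT14 pair.

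Reads sorted to human were counted per gene, with between 16958533 and 35874381 counts per tumour. Levels are given as the deposited RPKM, the reads per kilobase of exon and per 1000000 reads counted, because only a value per length can be compared between genes. A gene was taken as shown from 3 counts upward, which is 0.0836 to 0.177 RPM (reads per 1000000 reads counted) depending on the tumour, a floor for counting error only. KRT14, the lowest of the 10 keratins, had between 25 and 85 counts per tumour. The tumours had the markers of an epithelial line. All 6 genes of a list of epithelial markers were above 1 RPKM, among them the adhesion protein EPCAM with a mean of 166 RPKM. Of 8 luminal prostate markers 4 were above 1 RPKM, with HOXB13, a prostate homeobox factor, at 27.2 RPKM, and KLK3, which encodes prostate-specific antigen, had no read in any tumour. Of 4 basal prostate markers 3 were above 1 RPKM, led by ITGA6, the integrin α6 chain, at 33.6 RPKM.

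Keratin genes have arisen by duplication and lie in clusters, so the reads of some cannot be assigned with certainty. On GRCh37 (hg19), the type II members lie on chromosome 12 and so does KRT18, while the other type I members lie on chromosome 17. The sequences below are shown because KRT81 and KRT6A have relatives that differ from them at few bases, with KRT14 and its less similar relatives for comparison. Each is a 60-base stretch of a coding exon read in the direction of the gene, in lower case, with capitals at the positions where the 3 genes of a set are not all the same. Each stretch was chosen for many differences from the first gene of its set, among coding exons of equal length in the 3 genes. It overstates how far that first gene differs from its relatives over the exons compared. The first set is coding exon 5 of the hair keratins KRT81 (chr12:52681795-52681854, minus strand), KRT83 (chr12:52710670-52710729, minus strand) and KRT86 (chr12:52699102-52699161, plus strand), with 7 positions in capitals.
KRT81: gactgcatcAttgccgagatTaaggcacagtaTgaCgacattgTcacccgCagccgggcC
KRT83: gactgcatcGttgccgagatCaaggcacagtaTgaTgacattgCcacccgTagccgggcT
KRT86: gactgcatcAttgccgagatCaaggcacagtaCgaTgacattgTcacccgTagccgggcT

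The second set is coding exon 2 of the stress keratins KRT6A (chr12:52885339-52885398), KRT6B (chr12:52844223-52844282) and KRT6C (chr12:52865883-52865942), all on the minus strand, with 9 positions in capitals.
KRT6A: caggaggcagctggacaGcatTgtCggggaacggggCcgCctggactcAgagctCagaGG
KRT6B: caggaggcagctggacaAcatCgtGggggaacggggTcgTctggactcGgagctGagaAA
KRT6C: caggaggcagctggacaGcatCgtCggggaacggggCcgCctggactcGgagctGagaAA

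The third set is coding exon 3 of the type I keratins KRT14 (chr17:39740593-39740652), KRT16 (chr17:39767681-39767740) and KRT17 (chr17:39778691-39778750), all on the minus strand, with 14 positions in capitals.
KRT14: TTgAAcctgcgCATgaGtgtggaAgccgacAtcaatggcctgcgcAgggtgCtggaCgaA
KRT16: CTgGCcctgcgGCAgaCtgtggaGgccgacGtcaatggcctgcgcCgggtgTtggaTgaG
KRT17: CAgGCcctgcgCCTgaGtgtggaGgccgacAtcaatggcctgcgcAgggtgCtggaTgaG

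KRT81 was identical to KRT86 at 97.0% and to KRT83 at 94.9% of 910 coding bases in the 7 exons of equal length. KRT6A was identical to KRT6B at 97.5% and to KRT6C at 97.9% of 1692 coding bases. KRT14 was less like its relatives, with 92.0% identity to KRT17 and 85.3% to KRT16 over 749 coding bases in 5 exons.

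For each keratin, the share of the 50-base stretches of its transcript that also stand in a transcript of another annotated gene, on either strand, was counted. It was 54.3% for KRT18, 44.6% for KRT81, 39.2% for KRT8 and 39.2% for KRT6A. The shared stretches of KRT81 were mostly those of KRT86, in which 38.4% of the stretches of KRT81 occurred, and those of KRT6A were in KRT6C (35.2%) and KRT6B (28.6%). KRT8 and KRT18 share reads in another way, since both have many pseudogenes and since an annotated long form of KRT8 runs over 375 of the 1413 exon bases of KRT18 on the other strand. That form is from GENCODE, and the RefSeq set used for counting was not checked for it. KRT7 overlaps its antisense gene KRT7-AS over 221 of 1625 exon bases. The kit does not mark strand, so reads in these overlaps cannot be told apart, and how reads with several matches were counted is not given in the sources used here. The share was 24.2% for KRT14, 18.3% for KRT17, 11.7% for KRT7 and 4.52% for KRT5. KRT19 (1.79%) and KRT15 (1.02%) had almost no such stretches, and the plot of shared transcript sequence shows the 10 genes in order of level.

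**Figure D1:**
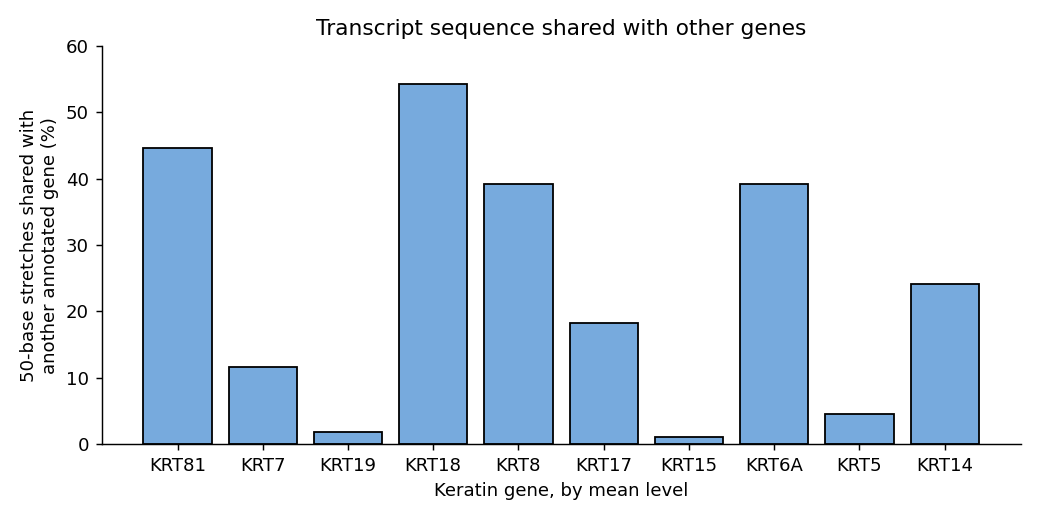
The vertical axis is the percentage of the 50-base stretches of each keratin's transcript that also occur in a transcript of another annotated gene, and the horizontal axis is the keratin, ordered by mean RPKM. KRT18, KRT81, KRT8 and KRT6A have bars between 39.2% and 54.3%, while KRT19 and KRT15 are under 2%.

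The hair keratin KRT81 and the 4 keratins of simple epithelium had the highest levels of all keratin genes examined. KRT81 had a mean of 829 ± 118 RPKM (SD, n = 11) and was 49th among the 25590 genes listed. The luminal keratins followed, with 429 ± 58.8 RPKM for KRT7, 394 ± 82.9 for KRT19, 316 ± 39.2 for KRT18 and 245 ± 22.9 for KRT8. These 5 were the only members above 100 RPKM. The basal pair was at the other end, with 2.84 ± 1.35 RPKM for KRT5 and 1.08 ± 0.353 RPKM for KRT14. KRT17 (55.1 ± 15.1 RPKM), KRT15 (22.3 ± 6.20 RPKM) and KRT6A (15.8 ± 6.78 RPKM) lay between.

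The order of the levels was not equally firm at each step. KRT81 was above KRT7 in 11 of 11 tumours and their ranges did not overlap, with a ratio between 1.74 and 2.21. KRT7, KRT19 and KRT18 were close to each other. KRT7 was above KRT19 in 8 of 11 tumours, with a ratio between 0.647 and 1.53, and KRT19 was above KRT18 in 10 of 11. KRT18 was above KRT8 in 11 of 11 tumours, although their ranges overlapped. The step from KRT8 to KRT17 was the widest among the higher keratins, with non-overlapping ranges and a ratio between 3.17 and 6.99. Below it, KRT17 was above KRT15 in 11 of 11 tumours and KRT15 above KRT6A in 9 of 11. KRT6A was above KRT5 with non-overlapping ranges, and KRT5 above KRT14 in 11 of 11 tumours with overlapping ones.

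**Figure D2:**
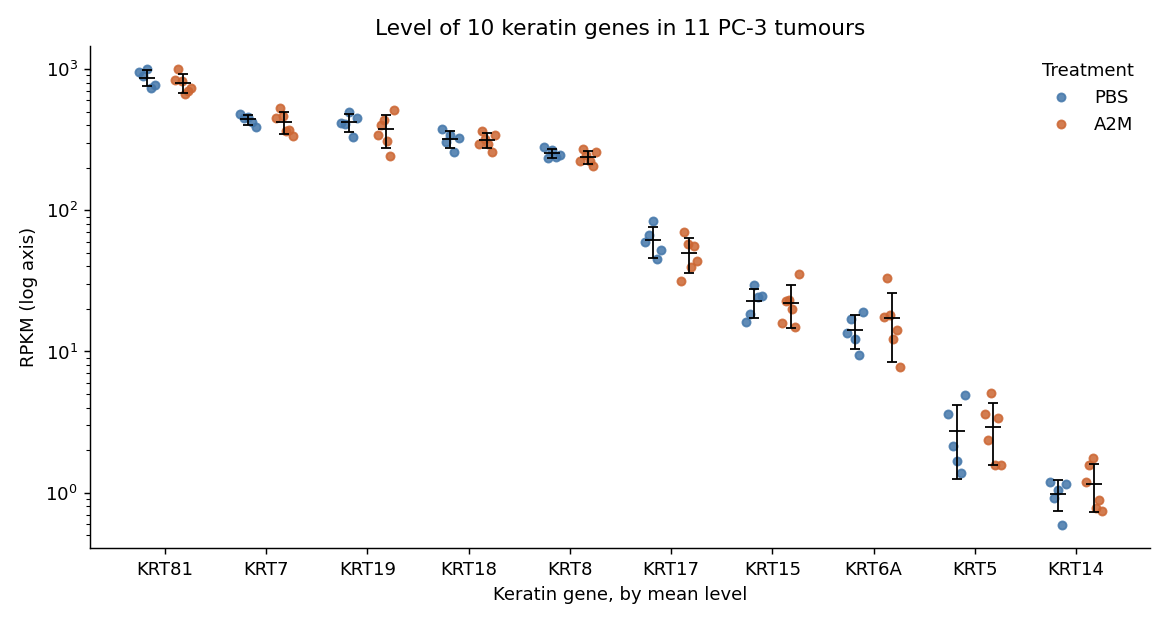
The horizontal axis lists the 10 keratins by mean level, and the vertical axis is RPKM on a log axis, with 1 point per tumour (blue for PBS, orange for A2M) and a bar for the mean and SD of each group. KRT81 is highest at 669 to 1004 RPKM, KRT14 lowest at 0.587 to 1.77 RPKM, and the points of the 2 treatments overlap for each keratin.

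Summed by role, the simple keratins (KRT7, KRT8, KRT18 and KRT19) had 1433 ± 126.8 RPKM in the PBS tumours (n = 5) and 1343 ± 187 RPKM in the A2M tumours (n = 6). The basal keratins (KRT5, KRT14 and KRT15) had 26.3 ± 5.11 and 26.1 ± 6.93 RPKM. The ratio of simple to basal keratins was 56.1 ± 12.5 and 53.1 ± 8.63, and it ran from 38.4 to 74.0 over the 11 tumours. Most of the basal sum was KRT15, which made the ratio follow that gene rather than KRT5 or KRT14. The 10 keratins took between 0.334% and 0.483% of the counted reads of a tumour, which was 81.0% to 86.7% of the reads of all 55 keratin genes examined.

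Filaments need both types in equal amounts as proteins, and the transcripts were compared by type. All type II keratins together had 1949 ± 193 RPKM in PBS tumours and 1817 ± 297 RPKM in A2M tumours, against 842 ± 111 and 776 ± 142 RPKM for all type I keratins. The type II to type I ratio was therefore 2.33 ± 0.226 in PBS and 2.39 ± 0.423 in A2M tumours. With KRT81 alone left out, the ratio was 1.30 ± 0.146 in PBS and 1.34 ± 0.255 in A2M tumours. Among the members only, the type II keratins other than KRT81 had 0.871 ± 0.107 and 0.907 ± 0.145 of the summed level of the type I keratins. The type I keratins of hair, with which KRT81 pairs in the hair shaft, summed to between 0.407 and 0.794 RPKM. KRT81 had no type I hair keratin at a like level.

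Among the 45 other keratin genes, the type II keratins were again more plentiful. KRT75, a keratin of the hair follicle's companion layer, had a mean of 120 RPKM, KRT86 93.6 RPKM and KRT83 50.8 RPKM, the last 2 being hair keratins. KRT6B, with 41.9 RPKM, was above KRT6A, and the KRT6B to KRT6A ratio was 3.003 ± 0.319 in PBS and 2.57 ± 0.553 in A2M tumours. KRT6C had 10.4 RPKM. The highest of the other type I keratins were KRT10, a keratin of differentiated epidermis, at 11.3 RPKM, KRT16, the partner of KRT6 in stressed skin, at 3.90 RPKM, and KRT23 at 0.516 RPKM. In all, 22 of the 55 keratin genes were above 1 RPKM and 6 were above 100 RPKM, those 6 being KRT75 and 5 of the members. The reads of KRT81 with KRT86 and of KRT6A with KRT6B and KRT6C stay uncertain, for the sequences given above.

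**Figure D3:**
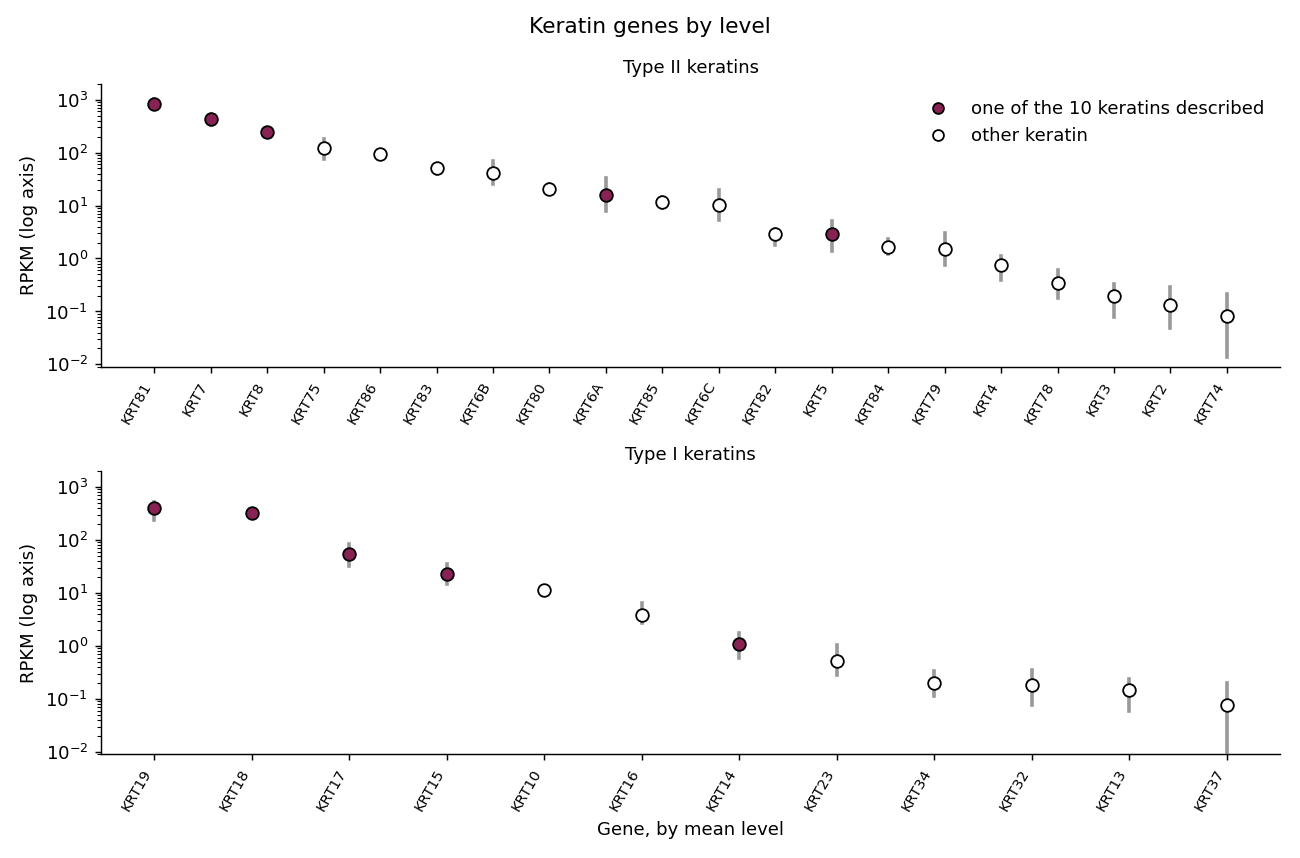
The panels list type II and type I keratin genes by mean level, with mean RPKM on a log axis, a grey line for the lowest to the highest tumour, filled circles for the 10 keratins described and open circles for others. The type II panel starts with KRT81, KRT7 and KRT8 and goes on with KRT75 at 120 RPKM, while in the type I panel nothing outside the members is above KRT10 at 11.3 RPKM.

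The tumours grew under mouse skin, whose epidermis and hair follicles also make keratins, so the markers of those tissues were examined among the human reads. A list of 11 genes of epidermis and hair follicle summed to between 10.4 and 13.9 RPKM in PBS tumours and between 10.3 and 13.6 RPKM in A2M tumours. KRT10 made up nearly all of this sum, and 7 of the 11 genes had a mean under 0.1 RPKM. KRT1, LOR, DSG1 and KRT27, genes of differentiated epidermis and the inner root sheath, had no read in any tumour. Other epidermal genes of the list had reads in every tumour. CDSN had a mean of 0.246 RPKM (at least 73 counts), FLG 0.207 RPKM (at least 29) and KRT2 0.133 RPKM (at least 2). A list of 7 fibroblast genes summed to between 54.2 and 156 RPKM, of which COL1A1 (89.0 RPKM) made up most. COL3A1 had a mean of 5.38 RPKM, COL1A2 0.530 RPKM and PDGFRB 0.151 RPKM, and 3 genes were under 0.1 RPKM. Lists for vessels, leukocytes, skeletal muscle and red cells summed to 21.2 RPKM at most. All these sums are of reads sorted to human, so they do not measure the amount of mouse tissue. Whether they come from the tumour cells or from mouse reads sorted wrongly was not tested. In bulk tissue, fewer cells of a type cannot be told apart from less RNA per cell.

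The main comparison asked whether the keratins differed between A2M and PBS tumours. No member passed the adjusted p of 0.01 in the quasi-likelihood test of edgeR (0 of 10 keratins, against 0% of 16630 genes), none passed an adjusted p of 0.05, and none had an unadjusted p under 0.05, where 7.08% of all genes tested had one (3.53% lower and 3.55% higher in A2M). DESeq2 called 0 members as well, with a smallest adjusted p of 0.775. Over all genes, DESeq2 and the exact test of edgeR each called 1 gene, REP15, which is no keratin and was named after its values were seen. For each of the 10 keratins the values of the groups overlapped, where 0.71% of all genes tested had groups that did not overlap. Of the 10, 7 were lower and 3 higher in A2M tumours, with a median log2 fold change of -0.10 against -0.0021 over all genes tested, of which 50.6% were lower. Intervals are 95% intervals of the log2 fold change, A2M minus PBS, and give the size of difference these tumours leave possible.

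KRT17 had the largest difference of the members and the smallest p. Its PBS tumours T123 to T127 had 59.1, 66.7, 84.4, 44.9 and 52.0 RPKM, and its A2M tumours ran from 31.7 to 70.4 with a median of 49.7 RPKM. Of the A2M tumours, 3 were below the lowest PBS tumour, with 31.7, 39.4 and 43.9 RPKM. PBS tumour T125 was above all A2M tumours, and the ranges of the groups overlapped. The log2 fold change was -0.35 (SE 0.200, interval -0.78 to 0.08; edgeR, adjusted p = 0.773).

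Among the luminal keratins, KRT8 was the steadiest, with 280, 236, 267, 240 and 246 RPKM in PBS tumours T123 to T127 and 205 to 269 RPKM (median 234) in A2M tumours. Its log2 fold change was -0.14 (SE 0.0835, interval -0.32 to 0.04; edgeR, adjusted p = 0.776). KRT18, the type I partner of KRT8, had 376, 303, 341, 257 and 326 RPKM in PBS tumours and 258 to 366 RPKM (median 309) in A2M tumours. Both partners were highest in PBS tumour T123, and the groups overlapped for both. KRT18 differed by -0.08 (SE 0.108; edgeR, adjusted p = 0.922).

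KRT19, a type I keratin with a very short tail, had 412, 409, 495, 329 and 451 RPKM in PBS tumours and 240 to 516 RPKM (median 369) in A2M tumours. A2M tumour T131 was lowest and A2M tumour T132 highest of all 11, so the A2M group spanned the PBS group. KRT19 differed by -0.21 (SE 0.171, interval -0.58 to 0.16; edgeR, adjusted p = 0.862). KRT7, the type II keratin of ducts and glands, had 482, 448, 455, 425 and 388 RPKM in PBS tumours and 334 to 532 RPKM (median 411) in A2M tumours. Here A2M tumour T132 was lowest and A2M tumour T128 highest, again with the PBS values between them. KRT7 differed by -0.11 (SE 0.120; edgeR, adjusted p = 0.906).

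The hair keratin KRT81 had 953, 896, 992, 737 and 771 RPKM in PBS tumours T123 to T127 and 669 to 1004 RPKM (median 779) in A2M tumours. The highest tumour, T128, and the lowest, T130, were both A2M tumours. The log2 fold change was -0.17 (SE 0.121, interval -0.43 to 0.09; edgeR, adjusted p = 0.832).

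The basal keratins KRT5 and KRT14 were low and variable. KRT5 had 3.59, 2.13, 1.67, 1.38 and 4.89 RPKM in PBS tumours and 1.57 to 5.12 RPKM (median 2.88) in A2M tumours, a range of 3.70-fold over all tumours. KRT14 had 1.19, 0.924, 1.05, 0.587 and 1.16 RPKM in PBS tumours and 0.740 to 1.77 RPKM (median 1.04) in A2M tumours. Both were lowest in PBS tumour T126 and highest in A2M tumour T129, the tumour with the fewest counts. KRT5 differed by 0.05 (SE 0.360, interval -0.72 to 0.82; edgeR, adjusted p = 0.987), so that differences of 1.77-fold in the upward direction lay within the interval, and KRT14 by 0.18 (SE 0.253; adjusted p = 0.923). The sign of KRT5 turned when any 1 of 5 tumours was left out, down to -0.17 without tumour T129. KRT15, a type I keratin of basal cells and hair follicle stem cells, had 16.2, 18.6, 29.4, 24.3 and 24.7 RPKM in PBS tumours and 15.0 to 35.4 RPKM (median 21.4) in A2M tumours. It was lowest in A2M tumour T131 and highest in A2M tumour T132, and it differed by -0.09 (SE 0.208; edgeR, adjusted p = 0.960), with the sign turned to 0.03 without PBS tumour T125 and to 0.0053 without A2M tumour T131.

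KRT6A had 13.6, 16.9, 12.3, 9.40 and 19.0 RPKM in PBS tumours and 7.72 to 33.1 RPKM (median 15.8) in A2M tumours. A2M tumour T128 stood above all others and A2M tumour T132 below them. Its log2 fold change of 0.23 (SE 0.298, interval -0.41 to 0.87; edgeR, adjusted p = 0.919) became -0.07 without tumour T128. That tumour was the highest A2M tumour for 6 of the 10 keratins and PBS tumour T126 the lowest PBS tumour for 7. Without tumour T128, KRT17 (log2 fold change -0.48), KRT8 (-0.19) and KRT81 (-0.25) had an unadjusted p under 0.05 in edgeR, and so had 7.04% of all genes tested in the same fit. Without tumour T126, KRT17 alone had one (-0.45), beside 10.02% of all genes tested. The smallest adjusted p among members was 0.694 without tumour T128 and 0.489 without tumour T126.

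**Figure D4:**
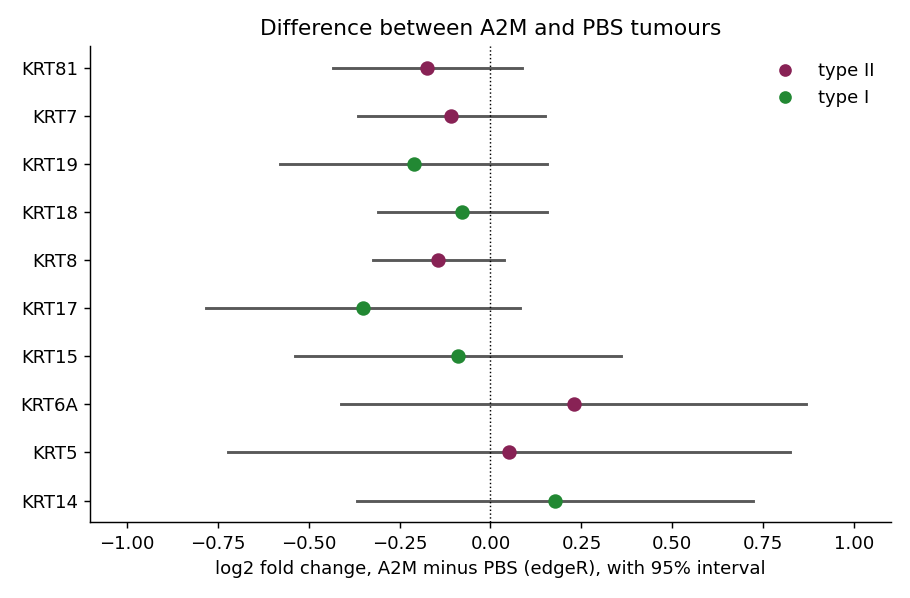
The horizontal axis is the log2 fold change, A2M minus PBS, from edgeR with its 95% interval as a line, and the vertical axis lists the keratins by mean level, purple for type II and green for type I. Each interval includes 0, from KRT8 with the narrowest (-0.32 to 0.04) to KRT5 with the widest (-0.72 to 0.82).

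The keratins differed in how much they varied between tumours of 1 treatment. The SD of log2 CPM (counts per 1000000 counts, with TMM normalization) within groups was 0.72 for KRT5, higher than for 99.1% of the genes tested. It was 0.60 for KRT6A and 0.48 for KRT14, at the 97.5 and 93.6 percentiles. KRT8 was at the other end with 0.14 and the 29.2 percentile, below the median of 0.18 over all genes tested. The 6 most variable members were KRT5, KRT6A, KRT14, KRT15, KRT17 and KRT19. The steadier ones were the luminal keratins KRT7, KRT8 and KRT18 and the hair keratin KRT81. Of these, KRT7, KRT18 and KRT81 were at the 61.1, 54.2 and 60.7 percentiles. The low counts of KRT14 add counting error to its spread, and the biological coefficient of variation of edgeR, which takes counting error out, still ran from 10.4% for KRT8 to 40.8% for KRT5 against 12.4% for the median gene.

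Whether type I and type II partners varied together was tested over the 11 tumours for 6 pairs, by permutation of log2 CPM with p adjusted over the 6. KRT8 and KRT18 rose and fell together, with Pearson's r = 0.872 (adjusted permutation p = 0.0036) and Spearman's rho = 0.927 (adjusted permutation p = 0.00084). Without the 2 tumours farthest from the median of KRT8, r was 0.794. Within the 6 A2M tumours it was 0.991, and within the 5 PBS tumours 0.870. With 1 tumour left out it ran from 0.805 (without T131) to 0.982 (without T126). The 2 genes share annotated exon bases and reads there could count for either. KRT8 and KRT19 had r = 0.838 (adjusted permutation p = 0.0036) and rho = 0.755 (adjusted permutation p = 0.0206). Without the 2 farthest tumours, A2M tumours T130 and T131, r was 0.557, over a narrower range of KRT8. Without T130 alone r was 0.814 (adjusted permutation p = 0.0186), and without T131 alone it was 0.707 (adjusted permutation p = 0.0454).

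The basal pair KRT5 and KRT14 had r = 0.727 (adjusted permutation p = 0.0245) and rho = 0.836 (adjusted permutation p = 0.0070), with r = 0.629 without the 2 farthest tumours. This relation had an adjusted permutation p of 0.05 or more when tumour T126, T129, T130 or T132 was left out, with r between 0.633 and 0.697 in these 4 cases. After centring each treatment on its own mean, r was 0.913 for KRT8 with KRT18, 0.814 for KRT8 with KRT19 and 0.728 for KRT5 with KRT14. On these values KRT8 and KRT18 were each other's closest member, and KRT14 was the closest member to KRT5. KRT14 itself was closer to KRT6A (0.796), KRT7 (0.765) and KRT81 (0.749) than to KRT5. Members of the same type also reached such values, with 0.864 for KRT7 with KRT81 and 0.793 for KRT18 with KRT19. Whether partners varied together more than other pairs of genes was not tested.

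The other 3 pairs did not pass. KRT6A and KRT17, which are induced together in stressed skin, had r = 0.353 (adjusted permutation p = 0.344) and rho = 0.391 (adjusted permutation p = 0.352), and r = 0.071 without the 2 farthest tumours. With 1 tumour left out it ran from 0.205 (without T128) to 0.543 (without T112). KRT7 and KRT19 had r = 0.284 (adjusted permutation p = 0.400) and rho = 0.200 (adjusted permutation p = 0.559), and r = 0.608 without the 2 farthest tumours. With 1 tumour left out it ran from 0.031 (without T131) to 0.661 (without T132, adjusted permutation p = 0.0555). KRT5 and KRT15 had r = -0.405 (adjusted permutation p = 0.324) and rho = -0.291 (adjusted permutation p = 0.464), and r = -0.783 without the 2 farthest tumours. With 1 tumour left out it ran from -0.56 (without T127) to -0.26 (without T132).

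**Figure D5:**
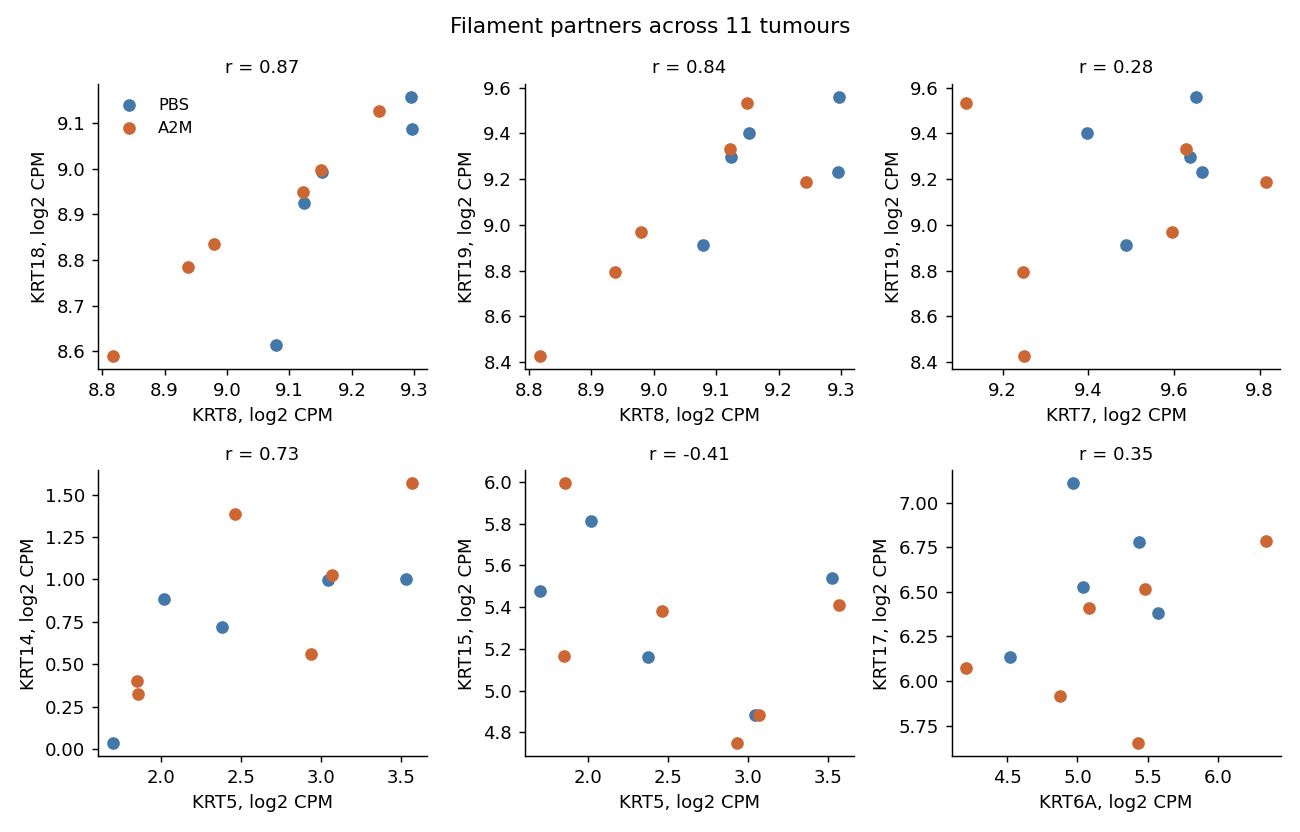
Each panel plots a type I keratin (vertical axis) against a type II keratin (horizontal axis) in log2 CPM, with 1 point per tumour, blue for PBS and orange for A2M, and Pearson's r above. KRT8 with KRT18 (0.87), KRT8 with KRT19 (0.84) and KRT5 with KRT14 (0.73) rise together, while the points of the other 3 pairs scatter.

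As a description without a test, the genes most like each keratin were found among all genes tested, by Pearson's r of log2 CPM centred within treatment over the 11 tumours. Another type II keratin came first for 3 members. KRT81 was most like KRT85 (r = 0.979) and KRT86 (r = 0.937), KRT7 was most like KRT83 (r = 0.958), with KRT86 the third (r = 0.919), and KRT6A was most like KRT6C (r = 0.975). KRT81 shares 38.4% of its 50-base stretches with KRT86 and 6.06% with KRT85, and KRT6A shares 35.2% with KRT6C, so shared reads could enter those values. For the other 7 members the nearest genes were no keratins. KRT18 was most like TFAP4 (r = 0.983), KRT19 like CRIP1 (r = 0.975), KRT8 like ZDHHC11 (r = 0.956), KRT15 like GOLGA2 (r = 0.964), KRT17 like MED26 (r = 0.930), KRT5 like ATN1 (r = 0.938) and KRT14 like VAC14 (r = 0.961). Each first-named gene has the highest of 16629 values.

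Genes of the keratin network were counted in 7 lists, and no gene of any list passed an adjusted p of 0.01 in edgeR. Beside the counts that follow, 7.08% of all 16630 genes tested had an unadjusted p under 0.05 and 50.6% were lower in A2M tumours, with a median log2 fold change of -0.0021. The lists were not tested against other genes. Of 13 tested type II keratins other than the members, 10 were lower in A2M tumours, with a median log2 fold change of -0.15, and 3 had an unadjusted p under 0.05, namely KRT78 (-0.60, edgeR adjusted p = 0.648), KRT79 (0.70, adjusted p = 0.649) and KRT3 (0.68, adjusted p = 0.693). All 3 had low levels, from 0.197 to 1.496 RPKM. Of 4 tested other type I keratins, with a median of -0.09, KRT23 had such a p (-0.75, edgeR adjusted p = 0.693).

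Desmosomes and hemidesmosomes anchor keratin filaments to neighbouring cells and to the basement membrane. Of 18 tested genes of these structures, 16 were lower in A2M tumours, with a median of -0.16, and 2 had an unadjusted p under 0.05. These were CD151, a tetraspanin of hemidesmosomes (307 RPKM, -0.24, edgeR adjusted p = 0.643), and ITGB4, the integrin β4 chain that binds keratin filaments through plectin (324 RPKM, -0.38, adjusted p = 0.699). LAMB3, a laminin chain of the basement membrane, had 286 RPKM and -0.18. Of 11 tested plakins and keratin linkers, 10 were lower with a median of -0.08 and none had an unadjusted p under 0.05. PLEC, the plectin gene, had 98.6 RPKM, SFN (14-3-3σ, a partner of KRT17) 91.9 RPKM and FAM83H, an organiser of keratin filaments, 28.9 RPKM.

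The other intermediate filament genes had a median of 0.16 over 11 tested genes, with no unadjusted p under 0.05. VIM, the mesenchymal filament protein vimentin, had 291 RPKM in this epithelial line, close to the level of KRT18, with LMNA, a nuclear lamin, at 117 RPKM and NES, nestin, at 30.3 RPKM. Among 20 tested transcription factors of epithelia the median was -0.0044, and SOX9 (37.4 RPKM, log2 fold change 0.21, edgeR adjusted p = 0.640) was the only one with an unadjusted p under 0.05. HES1 had 61.7 RPKM and FOXA1, a pioneer factor of luminal cells, 49.6 RPKM. TP63, which drives the basal keratins and was named after its value was seen, had 4.05 RPKM. Of the cornified envelope genes 6 of 15 could be tested, with a median of 0.15 and no unadjusted p under 0.05, and CSTA (12.0 RPKM), CNFN (6.37 RPKM) and TGM1 (3.38 RPKM) were the highest.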

How the data were processed

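RNA of 11 PC-3 xenograft tumours was sequenced as single reads from Illumina TruSeq libraries. The authors sorted reads by species with xenome, mapped the human reads with TopHat2 to hg19 and counted them per gene of a dated RefSeq annotation with featureCounts (bcl2fastq 1.8.4 before). The versions of xenome and featureCounts, the strand setting and the treatment of reads with several matches are not given in the sources used here. The counts were deposited as raw whole numbers. The deposited RPM divide each count by the tumour's total, and the deposited RPKM divide RPM by exon length. Mouse reads were not analysed here.

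Groups followed the labels, without covariates. Genes were filtered with filterByExpr, normalized with TMM (prior count of 2 for log2 CPM) and compared in edgeR 4.0.16 (quasi-likelihood test, run under R 4.3.3), taking a Benjamini-Hochberg adjusted p of 0.01 as the threshold over 16630 genes. The SE is the log2 fold change divided by the square root of F. Correlations used 100000 permutations (scipy 1.17.1). The alternatives were RLE, upper quartile or no factors, no filter, at least 10 counts in every tumour, DESeq2 1.42.0, the exact test of edgeR, limma-voom and limma 3.58.1 on log2(RPKM + 0.1), and each tumour left out. The edgeR fit was tested on simulated counts. Exon positions and transcripts are from GENCODE mapped to GRCh37. Figures were drawn with matplotlib 3.10.9.

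The members and the lists were chosen with earlier results of these data known. Named genes are the 10 members, their near relatives, the 3 genes nearest to each in pattern (the first of them is given, or more where they are keratins), and in each list the 3 with the highest RPKM and up to 3 with the smallest unadjusted p under 0.05. KRT6B, KRT6C and KRT85 are named as relatives, and the marker genes for the check of the tissue.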

Additional observations from a re-analysis of the deposited data

Results flagged for a closer look

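The ratio of KRT8 to KRT18 in RPKM was 0.935 in PBS tumour T126, while the other 4 PBS tumours lay between 0.745 and 0.784 and the A2M tumours between 0.735 and 0.794. The gap between tumour T126 and the nearest PBS tumour was 0.798 of the range of the group. It was the only such value among 58 groups of values searched, where chance gives about 1 in 20 (2.9 of 58). In that tumour KRT18 was the lowest of all 11 with 257 RPKM, and KRT8 was within the range of the others with 240 RPKM.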

How the results depend on the processing

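No member passed an adjusted p of 0.01 under any of the 9 alternatives or with any 1 of the 11 tumours left out, and the smallest adjusted p was 0.489. Under the 9 alternatives, 90 of 90 log2 fold changes of members kept their direction, and with tumours left out 102 of 110 did. The 8 that turned were KRT5 without tumour T124 (-0.02), T125 (-0.08), T126 (-0.12), T129 (-0.17) or T112 (-0.03), KRT15 without T125 (0.033) or T131 (0.0053), and KRT6A without T128 (-0.075). The values ranged from -0.17 to 0.37 for KRT5, from -0.27 to 0.033 for KRT15 and from -0.075 to 0.38 for KRT6A. The others kept their sign but moved, from 0.04 (without T129) to 0.27 (without T132) for KRT14, -0.15 (T126) to -0.02 (T131) for KRT18, -0.19 (T128) to -0.05 (T132) for KRT7, -0.32 (T132) to -0.11 (T131) for KRT19, -0.48 (T128) to -0.20 (T125) for KRT17, -0.25 (T128) to -0.11 (T125) for KRT81 and -0.19 (T128) to -0.10 (T131) for KRT8. The number of members with an unadjusted p under 0.05 ran from 0 to 3 with a tumour left out. Pearson's r of KRT5 with KRT14 ran from 0.633 to 0.828, and its adjusted permutation p was 0.0869 without tumour T126 (r = 0.651), 0.102 without T129 (r = 0.633), 0.0518 without T130 (r = 0.697) and 0.0548 without T132 (r = 0.689). For all of these the cause was not tested. The 7 lists were recounted only with no factors, with DESeq2 and with each tumour left out. The number of genes called in them was 0 in 91 of 91 values.

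No paired analysis was possible because the groups share no tumour numbers. The low counts of KRT14 and the spread of KRT5 and KRT6A between tumours limit their values, and sequence shared with relatives limits KRT81, KRT6A, KRT8 and KRT18.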
